A study of Mus musculus with 9 samples.

Results

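The genes examined here are those whose symbol is Dnah, Dnai or Dnaaf followed by a number, or Cfap followed by a number, with pseudogenes and antisense transcripts left out. Of the 32285 genes in the deposited matrices, 53 meet this rule: 15 Dnah genes, 5 Dnaaf genes and 33 Cfap genes. No gene is listed under a Dnai symbol. The intermediate chains are present under their older symbols, Dnaic1 and Dnaic2, and are not counted here, and 1 antisense transcript, Dnah2os, was left out. All 53 are protein coding, they lie on 18 chromosomes, and Cfap47 alone is on the X chromosome. In testes of control mice, 43 of the 53 genes were called at least 2-fold higher in pachytene than in early spermatocytes (17.4% of all genes tested were), and 45 were at least 2-fold higher in round spermatids than in spermatogonia (34.8%). With an estimate of free RNA subtracted, the former count was 31 (12.5%). Dynein heavy chain genes were mostly highest in pachytene or diplotene spermatocytes and 10 of 15 fell again in round spermatids (26% of all genes fell, and with free RNA subtracted Dnah2 and Dnah14 did, against 20%), whereas a smaller group that includes Dnah3, Dnah5 and Dnah9 reached its highest level in round spermatids. In spermatogonia and early spermatocytes summed per mouse, the total level of the 53 genes was 1767 to 2103 CPM (the UMI count as a share of all UMIs summed, put on a fixed total) in the 4 control mice. It was 969.9 and 1740.5 CPM in NELF-B cKO and 826 to 1224 CPM in the 3 mice of TDP-43 cKO. No member passed the edgeR thresholds in either cKO, where only 0.00512% of all genes were called lower in each. DESeq2 called 15 members lower in TDP-43 cKO (3.71% of all genes) and none in NELF-B cKO (0.0922%). In the free RNA of these libraries the 53 genes were lower than in controls in all TDP-43 cKO mice and in NELF-B cKO replicate 2. NELF-B cKO replicate 1 lay within the control range. These values are given beside the sums below.

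The axoneme is the microtubule core of motile cilia and of the sperm tail. Dnah genes encode the heavy chains of the outer and inner dynein arms, the motors that slide neighbouring microtubule doublets past each other, and Dnaaf proteins assemble these arms in the cytoplasm before they reach the axoneme. Many Cfap proteins belong to the central apparatus, the bases of the radial spokes, the attachments of the dynein arms or the inner wall of the doublets, and the loss of several of them in mice or humans is known to leave sperm immotile or malformed.

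All mice were labelled C57BL/6, the study's lines had been backcrossed to C57BL/6 J, and their whole testes were taken at postnatal day 24 (PND24), when the leading germ cells have reached the round spermatid stage. The NELF-B cKO mice carried a floxed and a null allele of Nelfb, a subunit of the complex that holds RNA polymerase II in the paused state. The TDP-43 cKO mice carried a floxed and a null allele of Tardbp, which encodes the RNA and DNA binding protein TDP-43. In both, the transgene Stra8-iCre, which is active in spermatogonia, deleted the floxed allele, and controls were littermates or mice of other litters. A library of 3′ ends was made for each mouse, in which each UMI (unique molecular identifier) counts 1 captured transcript, and the mouse is the unit of replication throughout.

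Over 1000 genes and a mitochondrial share below 10% were required of a barcode, which left 45132, from libraries of 119203347 to 159407373 UMIs, and 260 barcode sequences occurred in more than 1 library. Clustering without the 53 genes and without related axoneme genes and regulators gave 22 named clusters with 30093 cells, of which 20052 were germ cells, divided into spermatogonia (SG), early spermatocytes (early SC: preleptotene, leptotene and zygotene), pachytene SC (P), diplotene SC (D) and round spermatids (RS). In each cluster named for a germ stage, 3 to 10 markers of that stage exceeded their level elsewhere by 2-fold or more. A cluster of 841 cells counted among the SG was led by haemoglobin genes and had a median of 2069 UMIs per cell, and the D cluster with the most UMIs was named P when clusters were made finer. Control mice had 336 to 511 SG, 408 to 803 early SC, 419 to 701 P SC, 349 to 673 D SC and 178 to 719 RS. NELF-B cKO replicate 1 had 159 P SC, 528 D SC and 335 RS, the last 2 within the control ranges, and replicate 2 had 79, 21 and 9. TDP-43 cKO replicates 1 to 3 had 3, 145 and 150 P SC, 4, 119 and 109 D SC and 3, 32 and 57 RS. In SG, Nelfb was at 63.2 to 75.4 CPM in the control mice and at 5.65 and 4.99 CPM in those of NELF-B cKO. Tardbp was at 64.6 to 74.6 CPM in control SG and at 30.9, 35.1 and 35.3 CPM in TDP-43 cKO SG, although its 3′ end lies outside the deleted exon 3 and its UMIs therefore check the deletion only in part.

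A promoter sequence of 300 bases, 250 before and 50 after the annotated start, was at hand from RefSeq (GRCm38.p6) for 44 of the 53 genes. The X-box, which the RFX factors of ciliary genes bind, was searched on both strands as GTNNCC and GNAAC with 3 bases of any kind (N) between them. It was found in 8 of the 44 genes (18.2%), against 2.49% of all genes with a promoter entry. The shorter form GTTNCC, which can lie within an X-box, was found in 72.7% of these genes and in 48.8% of all. The letters AACNGNC, bound by MYB factors such as A-MYB, were found in 52.3% against 36%, and the CRE letters TGACGTCA, bound by CREM, only in Dnah6 (2.27% against 2.03%). Matches are counted on either strand with overlaps between motifs allowed, and such a match describes the letters and does not show binding. The 8 X-box stretches are shown because they carry the clearest sequence feature that the choice of symbols did not use. Each is written 5′ to 3′ on the strand of its gene with the 14 letters of the motif, read on either strand, in capitals. Cfap44 and Cfap61 are named here for holding the motif, after it had been found.
Cfap206, chr4:34730208-34730237, minus strand: cgcgttccGTTTCCACGGTTACgcgactgc
Cfap298, chr16:90935016-90935045, minus strand: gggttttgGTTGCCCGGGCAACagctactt
Cfap44, chr16:44394764-44394793, plus strand: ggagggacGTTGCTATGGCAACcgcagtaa
Cfap45, chr1:172521103-172521132, plus strand: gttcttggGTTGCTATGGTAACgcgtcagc
Cfap61, chr2:145934768-145934797, plus strand: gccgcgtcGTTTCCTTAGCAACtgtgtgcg
Dnaaf2, chr12:69198425-69198454, minus strand: tcccaggcGTTACTATGGCAACaaagcacg
Dnaaf5, chr5:139150209-139150238, plus strand: tagcgccgGTTCCCTTGGAGACaggcaacg
Dnah17, chr11:118129357-118129386, minus strand: acgcccttGTCACCAGCGCAACcacagata
In 6 of the 8 the motif began between position -27 and position -8 relative to the annotated start, and in Dnah17 and Cfap298 it lay farther upstream, at -159 and -188. Positions are counted from the start in the RefSeq promoter entry, which can differ from the end of the gene in the GENCODE coordinates given with the levels.

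Dnah7a, Dnah7b and Dnah7c encode near-identical inner arm heavy chains, so reads can be shared or lost between them and the 3 genes cannot be fully told apart in these counts. Their promoters are nearly alike too, and a stretch of 90 bases from the promoter window of Dnah7b, around its RefSeq start, and its closest match in the windows of the others are shown for that reason, with the MYB letters, read on either strand, in capitals. Over these 90 bases, Dnah7a has the same letter as Dnah7b at 80 positions (88.9%) and Dnah7c at 75 (83.3%), and the stretch of Dnah7c does not hold the MYB letters.
Dnah7b, chr1:46066793-46066882, plus strand: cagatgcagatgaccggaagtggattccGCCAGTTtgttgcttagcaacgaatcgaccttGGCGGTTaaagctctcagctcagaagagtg
Dnah7a, chr1:53706788-53706877, minus strand: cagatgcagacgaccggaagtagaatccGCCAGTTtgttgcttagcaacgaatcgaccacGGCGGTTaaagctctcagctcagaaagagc
Dnah7c, chr1:46425413-46425502, plus strand: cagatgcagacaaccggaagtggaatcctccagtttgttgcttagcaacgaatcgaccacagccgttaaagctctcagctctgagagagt

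To follow the 53 genes through spermatogenesis, UMIs were summed per control mouse and stage and neighbouring stages were compared within mice. Few of these genes were called from SG to early SC (9 of 53), although 24 were higher and 10 lower at an unadjusted p under 0.05 (27.2% and 32.8% of all genes). Most rose from early to P SC, and after that they parted into genes that went on rising into D SC or RS and genes that fell in RS. The summed level of the 53 genes was 1818, 1503.5, 1537 and 1499 CPM in SG of control replicates 1 to 4 and 2400.3, 2281.5, 2077 and 2130.2 CPM in their early SC. It was 9056, 9546, 10184 and 9182 CPM in P SC, 11044, 11866, 11972 and 11711 CPM in D SC and 8318, 9142, 7933 and 8186 CPM in RS. All control mice lay higher in P SC than in early SC without overlap, higher again in D SC, and lower in RS than in D SC. By mean CPM, the highest stage was SG for 2 genes, P SC for 11, D SC for 22 and RS for 18, and it was early SC for none. All 4 control mice gave that same highest stage for 1 of the 2 SG genes, 10 of the 11, 15 of the 22 and 14 of the 18. The Dnah genes had their highest stage in SG once, in P SC 4 times, in D SC 7 times and in RS 3 times. The Cfap genes had it in P SC 7 times, in D SC 12 times and in RS 14 times.

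**Figure D1:**
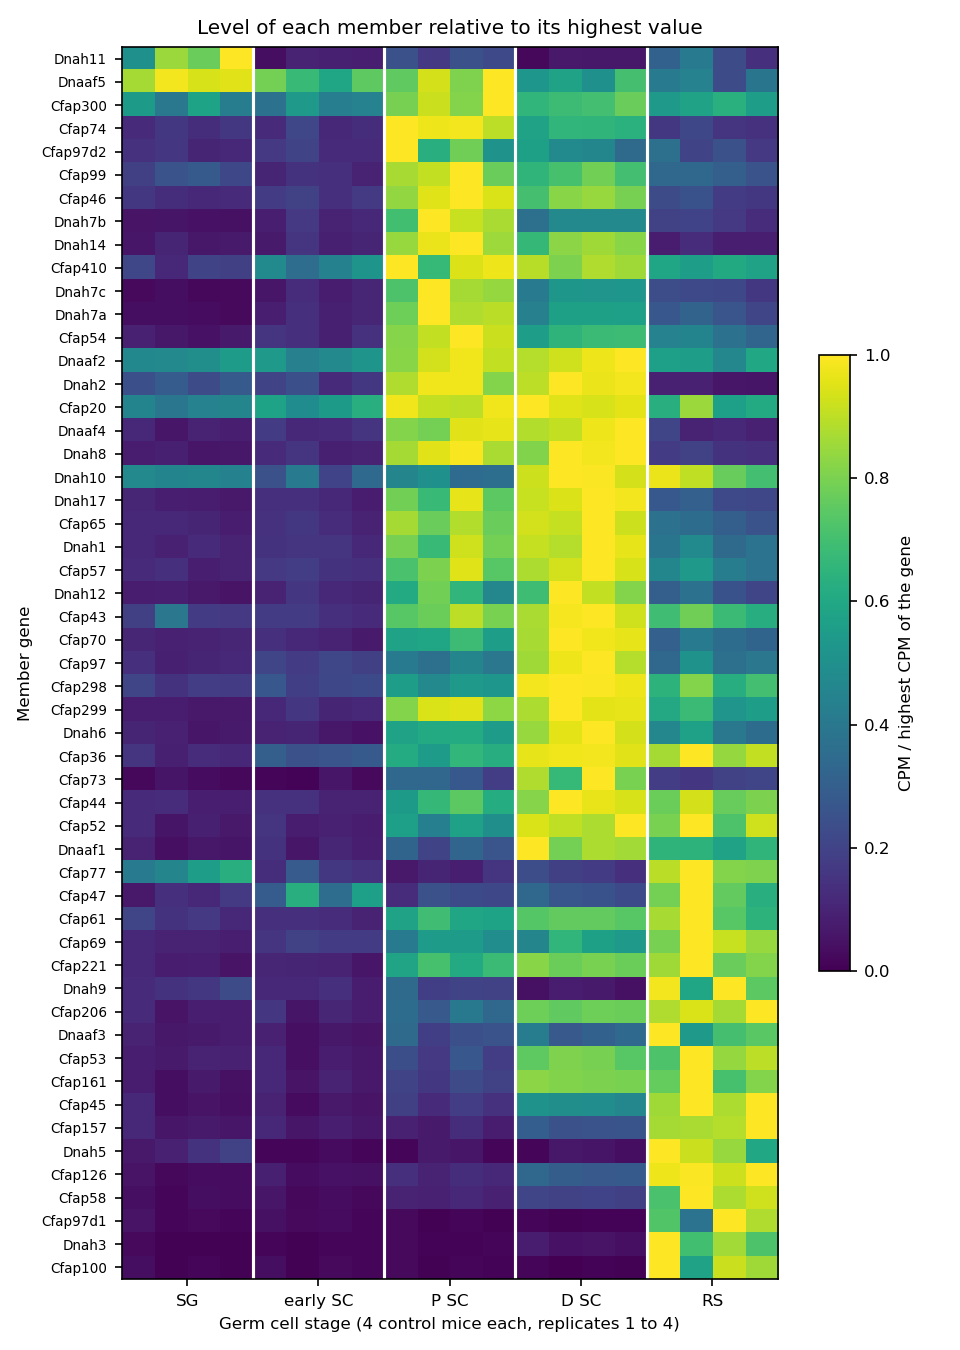
Level of each of the 53 genes (rows, ordered from genes highest in SG to genes highest in RS) in the 5 germ stages of the 4 control mice (a column per mouse and stage), as CPM over the highest CPM of that gene. The colour is low in SG and early SC for most rows, and by their mean 11 genes are highest in P SC, 22 in D SC and 18 in RS.

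Each stage step was tested by the quasi-likelihood method of edgeR, with the mouse as a block, over the 19508 genes that passed the filter on low counts, which all 53 members passed. A gene was called at an adjusted p (Benjamini-Hochberg) under 0.01 and a change of at least 2-fold. From SG to early SC, 6 members were called higher and 3 lower, where 7.73% of all genes tested were called higher and 17.6% lower. From early to P SC, 43 members were called higher and none lower by edgeR (3 were lower at an unadjusted p under 0.05, and DESeq2 called 1 lower), against 17.4% of all genes higher and 18.9% lower. From P to D SC, 18 were called higher and 2 lower, against 19.3% and 14.5%. From D SC to RS, 12 were called higher and 20 lower, against 28.1% and 26%. Over the whole course from SG to RS, 45 were called higher and 2 lower, against 34.8% and 39.3%. The median log2 change of the members in these 5 comparisons was 0.31, 2.26, 0.62, -0.58 and 2.85, and the median of all genes was -0.03, -0.11, -0.01, -0.11 and -0.25. Without scaling beyond the total of UMIs the medians of all genes shifted to -0.08, -0.30, -0.40, -0.03 and -0.80, and with RLE size factors to 0.01, -0.14, 0.00, 0.12 and 0.01, so that the changes are to be read against these medians.

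RNA free in the suspension enters every droplet and was rich in these transcripts: it was estimated from barcodes of 1 to 100 UMIs, in which the 53 genes summed to 6416 to 7866 CPM in the control mice. When an estimate of it was subtracted, members called higher numbered 1 from SG to early SC (5.3% of all genes), 31 from early to P SC (12.5%), 10 from P to D SC (18.3%) and 11 from D SC to RS (31.4%), with 5 called lower at the last step (20%). That estimate put 5.84% to 17.3% of the UMIs of SG, 5.7% to 32.5% of those of early SC and 18.3% to 42.1% of those of P SC in control mice down to free RNA. It was made from spermatid and somatic genes up to early SC and from somatic genes alone from P SC on. The subtracted steps from early to P SC and from SG to RS thus compare unlike estimates. The subtraction took many members to 0 in early germ cells of control replicate 2, the mouse with the shares of 17.3% and 32.5%. In its SG and early SC summed, the spermatid gene Prm1 was at 0.536 CPM, against 40 to 75.6 CPM in the other controls. The somatic genes Star and Myh11 were there at 12.3 and 10.3 CPM before subtraction and at 12.1 and 12.2 CPM after it. Whether the share of this mouse was set too high was not tested. The labels call this mouse a control, but a name given to its data by the submitters reads het, so its genotype may be heterozygous, which was not resolved.

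Of the 5 outer arm heavy chains (Dnah5, Dnah8, Dnah9, Dnah11 and Dnah17), Dnah8 and Dnah17 followed the common course, rising into P SC and falling in RS, and the others were highest in SG or in RS. Dnah8 (chr17:30624354-30877365, plus strand), the sperm counterpart of the chain Dnah5 encodes, had 109, 119, 81.5 and 89.5 CPM in SG of control replicates 1 to 4, 159, 206, 119.5 and 135.5 CPM in early SC and 1167, 1289, 1335 and 1176 CPM in P SC. Its levels were 1095, 1349, 1326 and 1347 CPM in D SC and 238, 268, 195 and 181 CPM in RS. P and D SC lay above all other stages in every mouse. With edgeR, Dnah8 rose by 3.22 ± 0.13 (log2 ± SE, adjusted p = 1.8e-13) into P SC and changed by -2.64 ± 0.12 (adjusted p = 4.42e-13) from D SC to RS. Dnah17 (chr11:118021723-118130634, minus strand), a heavy chain that the sperm tail uses, had 14.3 to 23.3 CPM in SG, 144 to 206 CPM in P SC, 196 to 214 CPM in D SC and 45.7 to 65.7 CPM in RS. It rose by 2.99 ± 0.16 on the log2 scale into P SC and changed by -2.01 ± 0.15 into RS (edgeR adjusted p = 7.1e-12 and 2.37e-10). Neither step of Dnah8 was called with free RNA subtracted (4.64 and -2.75, edgeR adjusted p = 0.012 and 0.0657). The step of Dnah17 into P SC then was, and that into RS was of like size but not called (-1.97 ± 0.85, edgeR adjusted p = 0.0535).

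Dnah5, Dnah9 and Dnah11, heavy chains known from the motile cilia of the airways and the embryonic node, stayed at low levels in SC and were higher in RS than in D SC. Dnah5 (chr15:28203752-28472052, plus strand) had 1.21, 1.64, 2.57 and 3.42 CPM in SG, 0.209 to 0.552 CPM in early SC, 0.299 to 1.29 CPM in P SC and 0.313 to 1.15 CPM in D SC. Its RS held 17.7, 16.3, 15 and 10.6 CPM, above every other stage of every control mouse, a change of 4.14 ± 0.35 from D SC (edgeR adjusted p = 1.8e-09). Dnah9 (chr11:65831282-66168551, minus strand) had 3.02 to 5.52 CPM in SG, 4.48 to 8.38 CPM in P SC, 1.07 to 1.89 CPM in D SC and 23.9, 14.3, 24.3 and 18.2 CPM in RS. It was called lower in D than in P SC (-1.47 ± 0.27, edgeR adjusted p = 8.74e-05), a change that was -0.60 with the finer clusters, and it rose by 3.63 ± 0.27 into RS. Dnah11 (chr12:117877982-118199043, minus strand) was the only Dnah gene highest in SG, at 5.43, 9.19, 8.34 and 10.8 CPM, against 0.419 to 1.04 CPM in early SC, 1.81 to 2.69 CPM in P SC, 0.235 to 0.723 CPM in D SC and 1.51 to 4.49 CPM in RS. Its SG lay above every other stage of every control mouse, and it changed by -3.23 ± 0.37 into early SC (edgeR adjusted p = 6.12e-07) and by -1.01 ± 0.31 from SG to RS (edgeR adjusted p = 0.00559). The latter call was lost with RLE size factors (-0.74), with free RNA subtracted, and without control replicate 3 (-0.94) or replicate 4 (-0.63).

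The 9 inner arm heavy chains were Dnah1, Dnah2, Dnah3, Dnah6, Dnah7a, Dnah7b, Dnah7c, Dnah10 and Dnah12, of which 7 rose into P SC (17.4% of all genes) and 7 fell from D SC to RS (26%). After subtraction of free RNA 7 rose as well (12.5%), and 1, Dnah2, was called lower in RS (20% of all genes). Dnah2 (chr11:69420809-69549110, minus strand) had 50.5, 60.1, 48.3 and 58.2 CPM in SG, 24.4 to 50.7 CPM in early SC, 168 to 202 CPM in P SC and 186 to 207 CPM in D SC. In RS it was at 18.8, 18.8, 12.7 and 11.6 CPM, under its SG level in every mouse. The change was 2.55 ± 0.14 into P SC, -3.81 ± 0.15 from D SC to RS and -1.29 ± 0.15 from SG to RS (edgeR adjusted p = 1.32e-11, 6.01e-14 and 1.21e-07). Dnah1, Dnah6 and Dnah12 followed the same course, with 11.9 to 15.4, 6.59 to 11.7 and 13.8 to 22.1 CPM in SG, 88.2 to 122, 61.5 to 68.7 and 123 to 209.5 CPM in P SC and 45 to 62.3, 39.4 to 64 and 55.9 to 99.9 CPM in RS. They rose into P SC by 2.71 ± 0.13, 3.18 ± 0.16 and 2.60 ± 0.12 on the log2 scale. Unlike those of Dnah2, their RS levels lay above their SG levels without overlap.

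Dnah3 and Dnah10 were not called into P SC and rose from P to D SC, as did Dnah6 (1.07 ± 0.13, and 1.31 ± 0.68 with free RNA subtracted, which was not called). Dnah3 (chr7:119922671-120095280, minus strand) had 7.24, 1.27, 2.27 and 2.23 CPM in SG, 1.9 to 5.65 CPM in early SC and 2.77 to 7.33 CPM in P SC, with no call between these stages (with free RNA subtracted it was called lower in P than in early SC). It had 22.5, 14.3, 15.7 and 12.5 CPM in D SC and 299.7, 209, 259 and 216 CPM in RS. Both late steps were called, at 2.39 ± 0.21 and 3.86 ± 0.18 on the log2 scale (edgeR adjusted p = 1.14e-08 and 4.62e-13). RS lay above SG in every mouse. Dnah10 (chr5:124725085-124834308, plus strand) had 24.8 to 26.5 CPM in SG, 11.3 to 23.1 CPM in early SC and 19.7 to 28.2 CPM in P SC, ranges that lie close together or overlap. It was at 52.1 to 56.4 CPM in D SC, a change of 1.63 ± 0.14 from P SC (edgeR adjusted p = 5.01e-09), and at 39.5 to 54.8 CPM in RS.

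The Dnah7 genes were 3 of the 6 members called higher from SG to early SC, with Cfap36, Cfap47 and Cfap410, and are given together because they share sequence. Dnah7a (chr1:53397006-53706784, minus strand) had 20.7, 21.2, 19.2 and 14.5 CPM in SG and 48.8, 77.1, 51.1 and 61.7 CPM in early SC, with no overlap. It then reached 444 to 571 CPM in P SC and fell to 249 to 325 CPM in D SC and 119.7 to 182 CPM in RS. Dnah7c (chr1:46425592-46807476, plus strand) had 19.5 to 30.6 CPM in SG, 51.1 to 109 CPM in early SC and 617 to 854 CPM in P SC, and Dnah7b (chr1:46066315-46373546, plus strand) had 26.8 to 33.7, 51.3 to 99.6 and 422 to 605 CPM. From SG to early SC the rise was 1.71 ± 0.13, 1.22 ± 0.14 and 1.84 ± 0.16 on the log2 scale for Dnah7a, Dnah7b and Dnah7c (edgeR adjusted p = 2.91e-09, 7.98e-07 and 2.46e-08). Their mean SG levels of 18.9, 30.5 and 22.7 CPM lay below those of Leydig cells, at 21.2, 41.8 and 30.5 CPM. With free RNA subtracted none of the 3 kept the call (2.57 ± 0.80, 1.61 ± 0.79 and 2.65 ± 0.79, edgeR adjusted p = 0.0216, 0.132 and 0.0174). From D SC to RS it was -1.10 ± 0.11, -1.46 ± 0.13 and -1.31 ± 0.15, and the call of Dnah7a was lost with RLE size factors (-0.87) and without control replicate 4 (-0.98). All 3 calls were lost with free RNA subtracted (-0.88, -1.31 and -1.13, edgeR adjusted p = 0.315, 0.146 and 0.19). The arm of Dnah14 (chr1:181576559-181815774, plus strand) is not assigned here. It had 41.8 to 70.7 CPM in SG, 571, 656, 676 and 576 CPM in P SC and 52.3 to 85.7 CPM in RS, so that its RS and SG ranges overlap. It rose by 3.38 ± 0.14 into P SC and changed by -3.21 ± 0.14 from D SC to RS (edgeR adjusted p = 3.06e-13 and 1.53e-13).

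**Figure D2:**
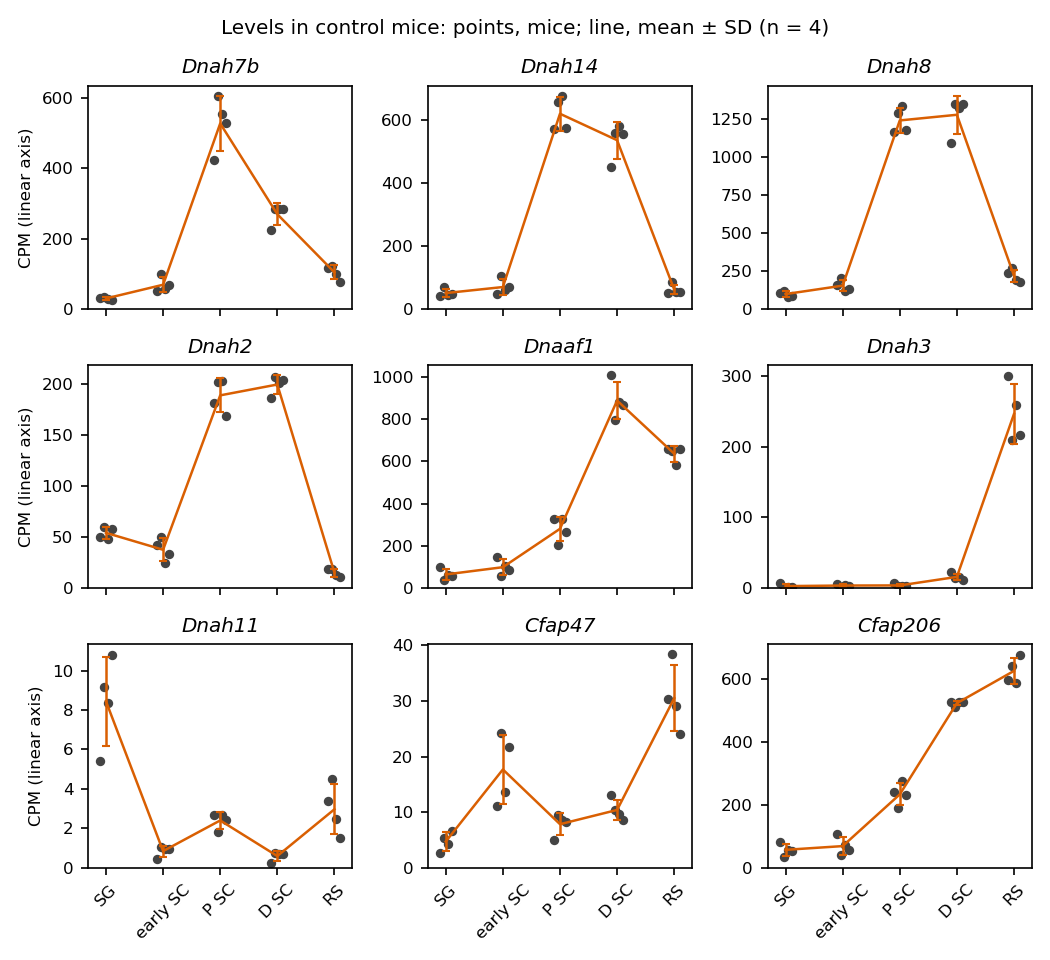
Level in CPM (linear axis, its own range per gene) of Dnah7b, Dnah14, Dnah8, Dnah2, Dnaaf1, Dnah3, Dnah11, Cfap47 and Cfap206 in the 5 germ stages of the 4 control mice, with a point per mouse and a line through the means, whose bars are the SD. Dnah8 and Dnah2 peak in P and D SC, Dnah3 is highest in RS (209 to 299.7 CPM) and Dnah11 is highest in SG (5.43 to 10.8 CPM).

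The 7 assembly factors (Dnaaf1 to Dnaaf5, Cfap298 and Cfap300) prepare dynein arms in the cytoplasm, and 6 of them rose into P SC (17.4% of all genes), 4 with free RNA subtracted (12.5%). Dnaaf1 (chr8:119575235-119598454, plus strand) had 99.7, 41.8, 64.7 and 57.7 CPM in SG of control replicates 1 to 4, 148, 60.8, 107 and 85.8 CPM in early SC and 207 to 328 CPM in P SC. Its levels were 1007, 795.5, 882 and 867.5 CPM in D SC and 581 to 659 CPM in RS. The step into D SC, at 2.07 ± 0.16 (edgeR adjusted p = 2.52e-09), was larger than that into P SC, at 1.72 ± 0.17, though the difference between the steps was not tested. Neither was called with free RNA subtracted (4.86 ± 2.05 and 1.61 ± 1.84, edgeR adjusted p = 0.0608 and 0.47). Cfap298 had 87.5 to 124 CPM in SG and 580.5 to 595 CPM in D SC.

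Dnaaf3 (chr7:4522933-4532453, minus strand) went on rising, with 10.9 to 17.3 CPM in SG, 31.6 to 59.4 CPM in P SC, 72.8, 48.2, 53.5 and 58.9 CPM in D SC and 172, 92.6, 121 and 128 CPM in RS. Its step into RS was 1.04 ± 0.09 (edgeR adjusted p = 2.81e-09), and it fell under the 2-fold limit without control replicate 1 (0.98) and with the finer clusters (0.90). Dnaaf4 (chr9:72958785-72973064, plus strand) was at 12.1 to 23.5 CPM in SG, 162 to 197 CPM in P SC, 181 to 204.5 CPM in D SC and 42.4, 20.2, 23.6 and 18.5 CPM in RS, and it changed by -3.04 ± 0.17 from D SC to RS (edgeR adjusted p = 4.97e-12). Dnaaf2, whose promoter holds an X-box, rose by 1.09 ± 0.09 from 52.1 to 64.9 CPM in early SC to 98.4 to 117 CPM in P SC (edgeR adjusted p = 3.18e-09). Dnaaf5 (chr5:139150223-139186510, plus strand), which also holds an X-box, was the only assembly factor highest in SG, at 34.2, 38.8, 37.1 and 37.7 CPM. It was at 29.9 to 39.5 CPM in P SC and at 16.1, 17.5, 9.1 and 15.4 CPM in RS, and its change of -0.81 ± 0.13 from SG to RS was under 2-fold (edgeR adjusted p = 1.17e-05).

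The 8 central apparatus genes were Cfap46, Cfap47, Cfap54, Cfap65, Cfap69, Cfap70, Cfap74 and Cfap221, of which 7 rose into P SC (17.4% of all genes) and 4 fell from D SC to RS (26%). After subtraction of free RNA 7 rose as well (12.5%), and 1, Cfap46, was called lower in RS (20%). Cfap74 had 211 to 235 CPM in P SC and 33.9 to 51.1 CPM in RS, and Cfap46 had 121 to 144 CPM and 23.4 to 36.3 CPM. Both were called lower in RS than in D SC, Cfap46 by -2.06 ± 0.12 on the log2 scale. Cfap65 and Cfap54 rose into P SC by 2.84 ± 0.12 and 3.03 ± 0.16 on the log2 scale, and Cfap69 was 3.76 ± 0.12 higher in RS (255 to 321 CPM) than in SG (26.4 to 36.2 CPM). Cfap70 was at 109.6 to 134 CPM in P SC and at 170.0 to 196 CPM in D SC, a step of 1.06 ± 0.12 that was -0.18 with the finer clusters, so its direction rests on where P and D SC were divided. The step was no smaller with free RNA subtracted but was not called (SE 0.84, edgeR adjusted p = 0.185).

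Cfap47, the X-linked member, took another course. It had 2.61, 5.28, 4.33 and 6.57 CPM in SG and 11.1, 24.2, 13.7 and 21.7 CPM in early SC of control replicates 1 to 4, with no overlap. In P SC it was at 4.94, 9.47, 8.6 and 8.27 CPM, lower than in early SC in every mouse, in D SC at 8.6 to 13 CPM and in RS at 30.4, 38.4, 29.1 and 24.1 CPM. With edgeR, Cfap47 (chrX:79266559-79517285, minus strand) rose by 1.93 ± 0.24 into early SC (adjusted p = 1.66e-06), changed by -0.97 ± 0.22 into P SC (adjusted p = 0.000877, just under 2-fold) and by 1.46 ± 0.21 from D SC to RS. The last of these changes was 0.05 with the finer clusters, and the change into P SC was called with free RNA subtracted (-1.18 ± 0.34). Both radial spoke base genes, Cfap61 and Cfap206, rose into P SC. Cfap206 (chr4:34688559-34730206, minus strand) had 82.4, 35.1, 56.5 and 52 CPM in SG, 189 to 274 CPM in P SC, 512 to 527 CPM in D SC and 586 to 677 CPM in RS, steps of 2.01 ± 0.20 into P SC and 1.58 ± 0.19 into D SC. From SG to RS it was higher by 4.09 ± 0.21 on the log2 scale. Neither step of Cfap206 was called with free RNA subtracted (2.68 ± 1.17 and 2.56 ± 1.13, edgeR adjusted p = 0.066 and 0.0716). Its change from SG to RS and the rise of Cfap61 into P SC were.

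Of the 7 microtubule inner proteins (Cfap20, Cfap45, Cfap52, Cfap53, Cfap77, Cfap126 and Cfap161), which line the inside of the doublets, 6 rose from P to D SC (19.3% of all genes) and all 7 were higher in RS than in SG (34.8%). After subtraction of free RNA these were 4 (18.3%) and 7 (36%). Cfap45 had 24.4 to 73.8 CPM in SG, 80.7 to 122 CPM in P SC, 301 to 334 CPM in D SC and 556 to 649 CPM in RS. Cfap53 had 22.5 to 31.7, 53 to 87, 236 to 257 and 229.8 to 319 CPM at these stages, and Cfap161 had 6.37 to 13.9, 29 to 40.9, 142 to 147 and 126 to 178 CPM. Their steps from P to D SC were 2.05 ± 0.24, 2.26 ± 0.19 and 2.44 ± 0.18, of which that of Cfap45 became 4.96 ± 1.76 with free RNA subtracted and was not called (edgeR adjusted p = 0.0287). Cfap20, the exception at that step, rose by 0.94 ± 0.11 into P SC, just under 2-fold (1.10 with free RNA subtracted, which was called). Cfap77 (chr2:28926949-29055066, minus strand) had 27.6, 30.9, 37.8 and 42.6 CPM in SG and 9, 19.5, 11 and 9.71 CPM in early SC, a change of -1.47 ± 0.24 (edgeR adjusted p = 2.88e-05). It lost its call with free RNA subtracted (-1.67 ± 0.56, edgeR adjusted p = 0.0314). Cfap77 returned to 54.8 to 67.8 CPM in RS, 2.18 ± 0.22 above D SC, a step that was 0.62 with the finer clusters.

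Of the 5 genes for tethers, modifiers and docking of the inner arms (Cfap43, Cfap44, Cfap57, Cfap73 and Cfap100), 4 rose into P SC (17.4% of all genes, and 4 also after subtraction, against 12.5%), Cfap43 by 2.61, and the remaining one, Cfap100, appeared in RS. Cfap100 and Cfap97d1 fall outside the rule for named genes and were picked after their values had been seen, as they had the largest changes into RS. Cfap100 was at 2.51, 0.382, 1.54 and 0.893 CPM in D SC and at 143, 82.1, 131 and 122 CPM in RS, a change of 6.69 ± 0.27 (edgeR adjusted p = 7.32e-14), and Cfap97d1 was at 1.17 to 4.07 and at 85.5 to 224 CPM, a change of 6.20 ± 0.29. Among the 9 members without a structural group here, 7 rose into P SC (17.4%), 4 with free RNA subtracted (12.5%). Cfap36 had 106 to 187 CPM in SG, 299 to 366 CPM in early SC, 664 to 799 CPM in P SC and 1152.5 to 1185 CPM in D SC, and was called at each of these steps (1.23 ± 0.12, 1.36 and 1.06). The changes were larger with free RNA subtracted but had larger errors, and none was called (1.84 ± 0.94, 1.76 ± 0.94 and 1.55 ± 0.93, edgeR adjusted p = 0.15, 0.127 and 0.18). Cfap299 went from 77.5 to 116 CPM in early SC to 601 to 707 CPM in P SC (3.07 ± 0.10), and Cfap97 changed by -1.29 from 629 to 732 CPM in D SC to 243 to 377 CPM in RS, a call lost with free RNA subtracted (-1.07, edgeR adjusted p = 0.0112).

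A list of 68 other axoneme genes (light and intermediate chains, tektins, radial spoke and central apparatus genes and others) was read in the same fits. Of the 62 that were tested, 6 were called higher and 3 lower in early SC than in SG, 49 higher and 1 lower (Efhc2) in P than in early SC, and 33 higher in D than in P SC. From D SC to RS 10 were called higher and 16 lower. The shares of all genes at these steps are those given for the members, and with free RNA subtracted 4, 31, 16 and 6 were called higher and 2, 6, 0 and 5 lower. Regulators known to act on such genes were read in the same sums. Mybl1, which encodes A-MYB, had 18.4 to 19.5 CPM in SG, 60.5, 105, 78.9 and 81.6 CPM in early SC and 109.8 to 179.6 CPM in P SC, and it was called higher at both steps (2.15 ± 0.12 and 1.00 ± 0.11) and lower in RS (-2.28 ± 0.12). Rfx2 and Rfx4 rose into P SC by 1.38 ± 0.08 and 2.88 ± 0.24 on the log2 scale, from 33 to 39.6 and 12.1 to 35.9 CPM in SG to 117 to 130.2 and 102 to 143.5 CPM in P SC. Foxj1, the regulator of motile cilia, was at 3.1 to 5.39 CPM in P SC and at 64.5 to 80.5 CPM in RS (3.38 ± 0.18 above D SC), and Crem, a regulator of spermatid genes, was higher in RS than in SG by 4.14 ± 0.10. Rfx1 fell by 1.51 on the log2 scale into P SC and rose by 3.47 into RS, and Rfx3 rose by 1.38 into RS.

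Because the members were already detected in SG, their SG level was set beside that of Leydig cells, which build no motile axoneme, of other somatic cells and of the free RNA. In the control mice the summed level was 1499 to 1818 CPM in SG, 857 to 1244 CPM in Leydig cells and 6416 to 7866 CPM in free RNA, so SG lay above Leydig cells and both lay under free RNA. Sertoli cells, at 2134.5 to 3436.3 CPM, lay above SG, and the range of interstitial cells, at 1172 to 2368 CPM, held that of SG. With free RNA subtracted, SG at 498.5 to 1212.0 CPM and Leydig cells at 462 to 914.5 CPM overlapped, though its share was not set from the same genes in both. Of the 52 members with a mean of at least 1 CPM in these cells, 18 had a higher level in SG of every control mouse than in Leydig cells of any, against 46.5% of all such genes. For Cfap77, Dnaaf5 and Dnah11 SG lay above free RNA as well.

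**Figure D3:**
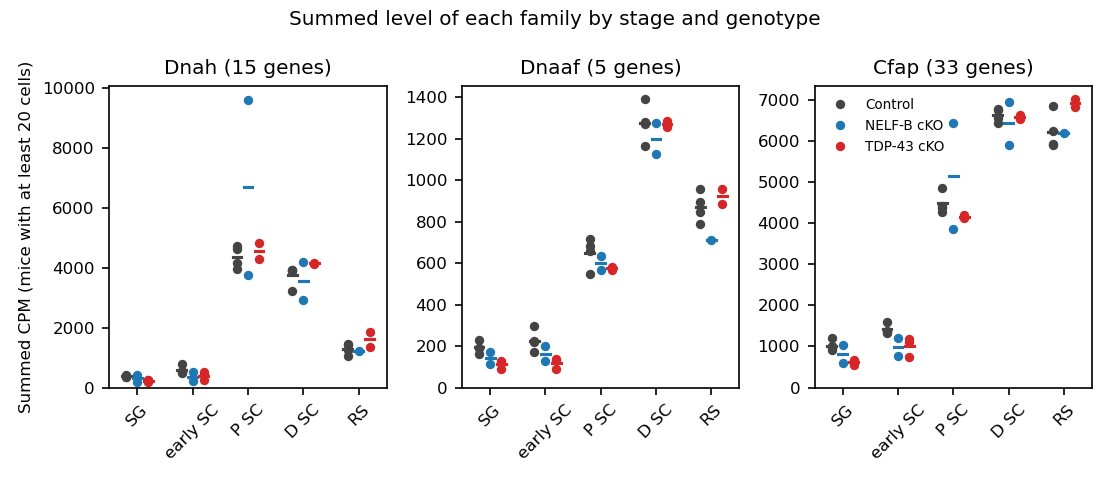
Summed level in CPM of the Dnah, Dnaaf and Cfap genes in the 5 germ stages by genotype, with a point for each mouse that had at least 20 cells and a bar at the mean. The Dnah sum lies at 340.2 to 438 CPM in SG and 3948 to 4726 CPM in P SC of the control mice, and NELF-B cKO replicate 1 lies above all other mice in P SC for the Dnah and Cfap sums.

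To ask whether these genes depend on NELF-B or TDP-43 before they are fully switched on, SG and early SC were summed per mouse and compared between genotypes. In cKO mice, germ cells in which Nelfb or Tardbp, respectively, was still detected had been removed, which took 90 of 2577 such cells from NELF-B cKO and 2755 of 5388 from TDP-43 cKO. No cell was left out of the controls. A cell with more UMIs more readily shows one of the targeted gene, so the removal also selects by depth, in cKO mice alone. Summed over the 53 genes, control replicates 1 to 4 had 2103, 1772, 1767 and 1835 CPM, NELF-B cKO replicates 1 and 2 had 1740.5 and 969.9 CPM, and TDP-43 cKO replicates 1 to 3 had 826, 1224 and 1199.7 CPM. All cKO mice lay below all control mice, narrowly so for NELF-B cKO replicate 1. These sums mix SG with early SC, where the summed level was higher in every mouse. Early SC outnumbered SG in every control mouse and in NELF-B cKO replicate 1, and SG outnumbered early SC in the other cKO mice. The part of this mix in the difference was not tested. Of the 19527 genes tested, which include all 53 members, edgeR called no member in either cKO. It called 0.00512% of all genes lower in each, which is 1 gene. Nelfb in NELF-B cKO and Tardbp in TDP-43 cKO were at 0 CPM in these sums through the removal of cells. With so few calls over all genes, the absence of members among them does not set the members apart. At an unadjusted p under 0.05, 8 members were lower in NELF-B cKO (6.62% of all genes) and 33 in TDP-43 cKO (15.6%), while 0 and 2 were higher (9.13% of all genes higher in TDP-43 cKO, and the share in NELF-B cKO is not given). DESeq2 at the same thresholds called no member lower in NELF-B cKO and 15 in TDP-43 cKO, where it called 0.0922% and 3.71% of all genes lower. The median log2 change of the members was -0.57 in NELF-B cKO and -0.83 in TDP-43 cKO, and that of all genes -0.02 and 0.01.

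**Figure D4:**
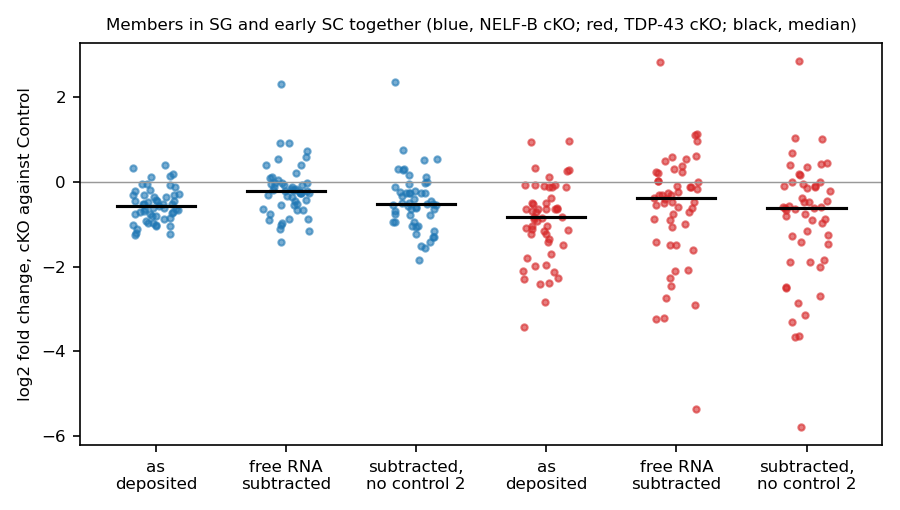
Log2 fold change (edgeR) in SG and early SC together, with a point for each gene tested (53 as deposited, 52 with free RNA subtracted) and a black bar at the median, in NELF-B cKO (blue) and TDP-43 cKO (red) against control, from counts as deposited, with free RNA subtracted, and with control replicate 2 left out as well. Most points as deposited lie below 0, with medians of -0.57 and -0.83, and with free RNA subtracted the medians are -0.21 and -0.39.

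The 2 NELF-B cKO mice differed from each other. Without replicate 1, 35 members were lower at an unadjusted p under 0.05 (13.3% of all genes) with a median of -1.16, and without replicate 2 there were 3 (10% of all genes) with a median of -0.16. Every TDP-43 cKO count made without a mouse lay between 25 and 35. The share of all genes, 15.6% with all mice, is not given for each of these counts. By role, the 33 members lower at an unadjusted p under 0.05 in TDP-43 cKO (15.6% of all genes) were 2 of 5 outer arm chains, 6 of 9 inner arm chains, Dnah14, 4 of 7 assembly factors, 6 of 8 central apparatus genes, 5 of 7 microtubule inner proteins, 3 of 5 tether and docking genes, 1 of 2 spoke base genes and 5 of the 9 without a group.

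Among the genes with the lowest p in TDP-43 cKO, Dnaaf1 had 123.5, 48.3, 82.6 and 72.6 CPM in control replicates 1 to 4, 68.8 and 16.4 CPM in NELF-B cKO and 7.52, 22.1 and 16.1 CPM in TDP-43 cKO. The TDP-43 cKO mice lay below all controls, whereas NELF-B cKO replicate 1 lay within the control range and replicate 2 below it. The TDP-43 cKO difference was -2.38 ± 0.55 (edgeR adjusted p = 0.0836, DESeq2 adjusted p = 0.00286). Cfap161 had 16.6, 7.39, 15 and 10.3 CPM in controls and 0.237, 1.69 and 1.38 CPM in TDP-43 cKO (-3.42 ± 0.83), and Cfap70 had 17.5 to 23.7 CPM and 4.91, 8.47 and 7.01 CPM (-1.49 ± 0.30). Neither overlapped with the controls. With free RNA subtracted, Dnaaf1 was at 31.5, 0, 11.2 and 30.9 CPM in controls and at 7.14, 0.081 and 3.7 CPM in TDP-43 cKO, and Cfap161 at 1.62, 0, 4.01 and 4.5 CPM and at 0.0821, 0 and 0.0698 CPM. Both thus overlapped, through control replicate 2 alone, and the other controls lay above all TDP-43 cKO mice. The same held for Cfap70 and for the genes that follow. Dnah8 had 133, 149, 97.7 and 114 CPM in controls, 123 and 28.4 CPM in NELF-B cKO and 18, 45.7 and 45.9 CPM in TDP-43 cKO, a difference of -1.70 ± 0.47 in the latter (edgeR adjusted p = 0.0845). Dnah12 had 21.3 to 28.8 CPM in controls and 8.87, 13.4 and 11.6 CPM in TDP-43 cKO (-1.04 ± 0.23), and Cfap53 had 19.3 to 30.8 and 8.31 to 13.5 CPM (-1.13 ± 0.27).

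In NELF-B cKO the lowest p belonged to Dnaaf3, with 16.4, 9.59, 11.9 and 11 CPM in controls and 6.75 and 5.99 CPM in NELF-B cKO, no overlap and a difference of -0.96 ± 0.26 (edgeR adjusted p = 0.206). Cfap54 followed with 12.3 to 22.8 CPM in controls and 9.66 and 5.6 CPM (-1.26 ± 0.39), then Dnah7b with 41.3 to 56.4 CPM and 37.6 and 24.3 CPM (-0.63 ± 0.20). These mice lay below the controls as well, though no gene passed the adjusted threshold. The 3 genes overlapped with the controls after subtraction of free RNA, at -0.55 ± 0.41, -1.11 ± 1.28 and -0.27 ± 0.44. The overlap came through control replicate 2 alone, then at 3.26, 0 and 11.2 CPM. Other members lay close to the controls in both cKOs. Dnaaf5, for example, had 31.2 to 34.6 CPM in controls, 31.8 and 32.6 CPM in NELF-B cKO and 23.4, 30.8 and 33.7 CPM in TDP-43 cKO (-0.05 ± 0.13 and -0.11 ± 0.11), and Dnaaf2 had 54.9 to 63.9, 57.6 to 58.5 and 47.7 to 57.5 CPM.

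The level of these genes in free RNA differed between libraries, and also between the NELF-B cKO mice, of which replicate 1 lay within the control range. It was 7058, 7866, 6416 and 6515 CPM in control replicates 1 to 4, 6445 and 1572 CPM in NELF-B cKO and 679, 3323 and 2867 CPM in TDP-43 cKO, so that all TDP-43 cKO mice and NELF-B cKO replicate 2 lay far below the controls. In Leydig cells the summed level was 857 to 1244 CPM in controls, 817 and 376 CPM in NELF-B cKO and 322, 454 and 452 CPM in TDP-43 cKO, so all cKO mice lay below all controls there too. After subtraction of free RNA, the sums of SG and early SC were 1475.5, 498, 1235 and 1549 CPM in controls, 1242 and 920.3 CPM in NELF-B cKO and 831, 942 and 1016 CPM in TDP-43 cKO. These overlap, with control replicate 2 below all cKO mice and NELF-B cKO replicate 1 just above control replicate 3. With that subtraction, 0 members in NELF-B cKO (5.32% of all genes) and 2 in TDP-43 cKO (5.92%) were lower at an unadjusted edgeR p under 0.05. With control replicate 2 left out as well, a setting chosen after its subtracted values had been seen, 13 of 52 (8.7%) and 29 of 52 (11.1%) were lower, with medians of -0.52 and -0.61.

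The same dependence appeared in counts of genes whose mice did not overlap. Among members with a mean of at least 1 CPM, every cKO mouse lay below every control for 9 of 52 in NELF-B cKO (10% of all genes) and 34 of 52 in TDP-43 cKO (18.4%). After subtraction this held for 0 of 50 (8.51%) and 2 of 50 (8.56%), and without control replicate 2 for 21 of 51 (16.7%) and 31 of 51 (19%). The part of free RNA in these differences beyond the subtraction was not tested. Dnah10 was among the genes that stayed apart in TDP-43 cKO: it had 20.4, 24.7, 19.6 and 21.8 CPM in controls, 32.7 and 25 CPM in NELF-B cKO and 15.8, 13.3 and 11.4 CPM in TDP-43 cKO. With subtraction these became 16.6 to 21.5, 25.8 to 32.8 and 10.4 to 15.8 CPM, still without overlap on either side. The TDP-43 cKO difference was -0.62 ± 0.16 (edgeR adjusted p = 0.0836) and the NELF-B cKO difference 0.39 ± 0.18, not called.

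**Figure D5:**
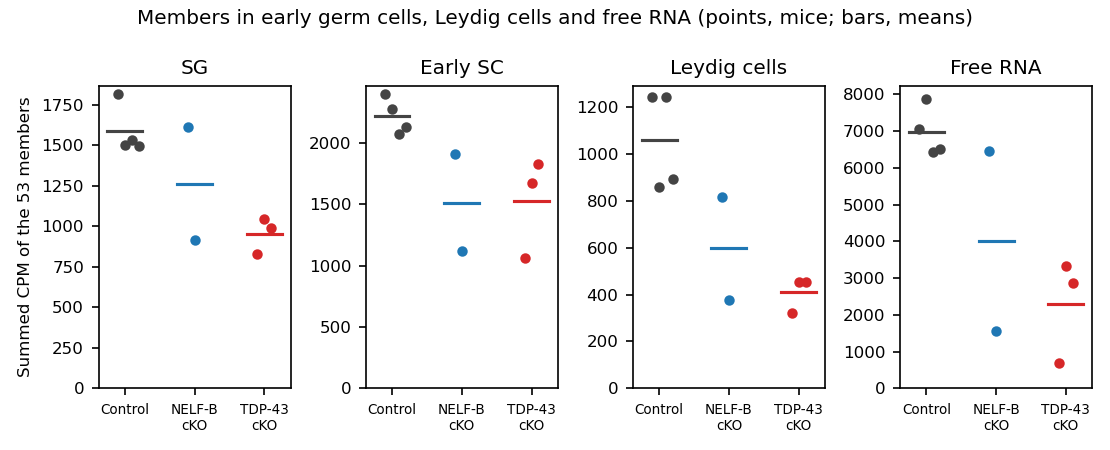
Summed level in CPM of the 53 genes in SG, early SC, Leydig cells and free RNA by genotype, with a point per mouse and a bar at the mean. In free RNA the control mice lie between 6416 and 7866 CPM and the TDP-43 cKO mice between 679 and 3323 CPM, and in Leydig cells all cKO mice lie below the control mice too.

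SG and early SC were also compared separately, with no germ cell left out. In SG, 52 members were tested among 18717 genes, and edgeR called none in either cKO (0.00534% of all genes lower in NELF-B cKO and 0% in TDP-43 cKO). At an unadjusted p under 0.05, 7 members were lower in NELF-B cKO (5.8% of all genes) and 36 in TDP-43 cKO (14.3%), and DESeq2 called 0 (0.0588%) and 7 (3.67%). In early SC, 51 members were tested among 16551 genes, and edgeR again called none (0.00604% of all genes in each cKO), with 15 (7.37%) and 27 (14.8%) lower at an unadjusted p under 0.05 and 1 (0.242%) and 12 (4.56%) called lower by DESeq2. In TDP-43 cKO early SC, 8 members were lower at an adjusted p under 0.05 (2.67% of all genes). The edgeR count there depended on the NELF-B cKO libraries, which share the fit. At the stricter threshold it was 11 without NELF-B cKO replicate 1 (2.96% of 17250 genes tested) and 13 without replicate 2 (3.44% of 17581). The estimate of spread and the genes tested both change with a library left out, and the reason for the change in the count was not tested. Dnaaf1, Cfap161 and Cfap70 were among the members called in the counts of 8, 11 and 13 and in that of DESeq2, at -2.06 ± 0.45, -3.62 ± 0.75 and -2.13 ± 0.48 (edgeR adjusted p = 0.0442, 0.0424 and 0.0446). With free RNA subtracted, summed SG levels were 498.5 to 1212.0 CPM in controls, 861.1 and 1135.4 CPM in NELF-B cKO and 738.0 to 837.2 CPM in TDP-43 cKO. In early SC they were 497.6 to 1865.2, 1086.2 to 1391.2 and 1081.3 to 1721.8 CPM. All overlap with controls, in TDP-43 cKO SG and NELF-B cKO early SC through control replicate 2 alone.

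Cfap47 went the other way in TDP-43 cKO early SC. It had 11.1, 24.2, 13.7 and 21.7 CPM in early SC of control replicates 1 to 4, 22 and 20.5 CPM in NELF-B cKO and 41.2, 58.5 and 75.8 CPM in TDP-43 cKO. All TDP-43 cKO mice lay above all others, a difference of 1.79 ± 0.28 (edgeR adjusted p = 0.0245), and in SG its levels were 2.61 to 6.57, 4.74 to 6.33 and 6.22 to 6.6 CPM. Its level in free RNA of control mice was 7 CPM, below that of early SC. Dnah9 too was higher there, with 1.96 to 3.31 CPM in controls and 4.45, 6.3 and 6.17 CPM in TDP-43 cKO (1.14 ± 0.28, edgeR adjusted p = 0.0481). Of all genes, 9.18% were higher at an unadjusted p under 0.05 in this comparison, as were these 2 members. In SG and early SC summed, with cells holding a Tardbp UMI left out of TDP-43 cKO, Cfap47 was at 6.77 to 14.6 CPM in controls. TDP-43 cKO replicates 1 to 3 then had 9.26, 25.3 and 24.6 CPM, so that replicate 1 lay within the control range.

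Whether the rise from SG to early SC itself differed was tested as an interaction of stage and genotype, with the mouse as a block. Over 19056 genes with 52 members, edgeR called no member at an adjusted p under 0.01 in NELF-B cKO (0% of all genes) or TDP-43 cKO (0.0262%). At an unadjusted p under 0.05, 6 members differed in NELF-B cKO (10.2% of all genes) and 26 in TDP-43 cKO (19.9%), and DESeq2 called 0 and 4, against 0.163% and 1.02% of all genes, the 4 being Dnah7a, Dnah7c, Cfap47 and Cfap206. The TDP-43 cKO mice had 1.49, 8.7 and 6.36 CPM of Dnah7a in SG and 22.3, 68.5 and 76.9 CPM in early SC, where controls had 14.5 to 21.2 and 48.8 to 77.1 CPM. The cKO mice thus lay below all controls in SG and, but for replicate 1, within the control range in early SC. In control SG, Dnah7a and Dnah7c lay at 18.9 and 22.7 CPM on average, against 21.2 and 30.5 CPM in Leydig cells, and at 6.09 and 8.79 CPM with free RNA subtracted. The rise of Dnah7a was larger by 1.94 ± 0.39 on the log2 scale (edgeR adjusted p = 0.0434), that of Dnah7c by 1.67 ± 0.30 (edgeR adjusted p = 0.0349) and that of Cfap47 by 1.41 ± 0.27 (edgeR adjusted p = 0.0391). These 3 are also the members whose rise differed at an adjusted p under 0.05 with edgeR (1.24% of all genes). With free RNA subtracted none of the 3 was called (4.26 ± 1.58, 3.75 ± 1.73 and 1.41 ± 0.44, edgeR adjusted p = 0.477, 0.544 and 0.421).

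At the late stages no cell was left out, so cells that still held the targeted transcript are included. P SC consisted of a cluster with a median of 37457.5 UMIs per cell and one with 3115.0. The former held 30.8% to 49.4% of the P SC of control mice, but 12.6% and 36.7% of those of NELF-B cKO and 57.9% and 45.3% of those of TDP-43 cKO replicates 2 and 3. In all P SC the summed level was 9056 to 10184 CPM in controls, 16677 and 8199 CPM in NELF-B cKO and 7420.4, 8978 and 9607 CPM in TDP-43 cKO. In D SC it was 11044 to 11972, 10111 to 12275 and 10334 to 12034 CPM, and in RS 7933 to 9142, 8129.7 to 8948 and 8986 to 9583 CPM. The ranges overlap at each stage, but single cKO mice lay outside that of the controls. In RS, TDP-43 cKO replicates 2 and 3 lay above all controls, and replicate 1, within their range, had 3 cells. In D SC, NELF-B cKO replicate 1 and TDP-43 cKO replicate 3 lay above all controls. NELF-B cKO replicate 2 and TDP-43 cKO replicate 1 lay below them. In P SC, NELF-B cKO replicate 2 and TDP-43 cKO replicates 1 and 2 lay below all controls. NELF-B cKO replicate 1 there stood well above all other mice. In the cluster of many UMIs alone this mouse, with 20 cells, was at 8258.0 CPM, within the control range of 7601.3 to 9312.2 CPM, and NELF-B cKO replicate 2 and TDP-43 cKO replicates 2 and 3 were at 7139.5, 7966.4 and 7535.4 CPM. Cells without a UMI of the targeted gene gave other sums in TDP-43 cKO. Replicates 2 and 3 kept 42 of 145 and 50 of 150 P SC, with 12313.6 and 19653.6 CPM. They kept 17 of 119 and 24 of 109 D SC, with 11320.2 and 12032.7 CPM, and 23 of 32 and 46 of 57 RS, with 10909.7 and 10638.9 CPM. In both mice P SC and RS then lay above all controls, as RS had with all cells. But 4 of the 42 and 3 of the 50 P SC left were of the cluster of many UMIs, and in these few cells the sums were 6391.8 and 5888.0 CPM, below all controls. In the RS cluster with a median of at least 5000 UMIs, the cells left (4 and 13) were at 9531.5 and 9719.5 CPM. Controls there were at 7654.8 to 8988.4 CPM. With cells that held a UMI of the targeted gene left out of the cKO mice, but of no control, edgeR called no member in P SC or RS of TDP-43 cKO. At an unadjusted p under 0.05, 7 of 51 members were higher in P SC (6.73% of all genes) and 10 lower (14.3%), and 18 of 53 were higher in RS (7.66%) and 2 lower (11.5%). In the tests of all cells, TDP-43 cKO replicate 1 was left out of P SC, D SC and RS and NELF-B cKO replicate 2 out of RS for having fewer than 20 cells, so NELF-B cKO RS have no test.

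In P SC, edgeR called none of 52 members in NELF-B cKO (0.00696% of all genes called lower) or TDP-43 cKO (0%), with 1 (4.18%) and 4 (4.51%) lower and 3 (9.24%) and 0 higher at an unadjusted p under 0.05. In D SC it called none of 53 (0.00571% and 0%), with 1 (4.24%) and 2 (3.52%) lower and 2 (6.8%) and 0 higher (the share of all genes higher in TDP-43 cKO is not given for P or D SC). In TDP-43 cKO RS it called none (0%), with 0 lower (6.23%) and 5 higher (3.06%), and DESeq2 called none lower at these 3 stages. The median change of the members was 0.22 and -0.07 in P SC, -0.10 and -0.00 in D SC and 0.08 in TDP-43 cKO RS. Dnah8, for example, had 2782 CPM in P SC of NELF-B cKO replicate 1, of which few were from the cluster of many UMIs, 1077 CPM in those of replicate 2 and 945, 1275 and 1350.2 CPM in those of TDP-43 cKO, against 1167 to 1335 CPM in controls. In RS it had 222 and 244 CPM in NELF-B cKO and 199, 227 and 247 CPM in TDP-43 cKO, within the control range of 181 to 268 CPM. Cfap206 had 545 and 523 CPM in D SC of NELF-B cKO and 537, 521 and 530.4 CPM in those of TDP-43 cKO, where controls had 512 to 527 CPM. Dnah3, highest in RS, had 214 and 377 CPM there in NELF-B cKO and 229, 197 and 356 CPM in TDP-43 cKO, against 209 to 299.7 CPM in controls. Of the values listed, those of TDP-43 cKO replicate 1 rest on 3 P SC, 4 D SC and 3 RS. The RS values of NELF-B cKO replicate 2 rest on 9 cells. The lowest p of the late stages were those of Cfap47 in TDP-43 cKO RS (0.99 ± 0.21, edgeR adjusted p = 0.519) and in NELF-B cKO P SC (2.14 ± 0.52, edgeR adjusted p = 0.166).

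Of the 62 other axoneme genes, 13 in NELF-B cKO (6.62% of all genes) and 42 in TDP-43 cKO (15.6%) were lower in SG and early SC at an unadjusted edgeR p under 0.05, with medians of -0.66 and -0.95 and none called. With free RNA subtracted these were 2 (5.32%) and 6 (5.92%), with medians of -0.29 and -0.27. Of the regulators, none was called in either cKO. Rfx2 and Sox30 differed by -0.70 ± 0.18 and -0.60 ± 0.13 in TDP-43 cKO (edgeR adjusted p = 0.0836 each), and Mybl1 by -0.12 in NELF-B cKO and -0.28 in TDP-43 cKO. Rfx4 and Crem lay below the controls too, at 4.16 to 8.07 against 14.2 to 26.6 CPM and 40.3 to 44 against 56.7 to 74.1 CPM. Rfx3, at 151.4 to 179.1 CPM, overlapped with controls at 108.2 to 167.4 CPM. After subtraction of free RNA, Rfx2, Rfx4 and Crem overlapped with the controls and Sox30 did not.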

How the data were processed

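Testes of 9 mice were measured by single cell RNA-seq of 3′ ends. The matrices deposited by the authors hold whole UMI counts per gene and barcode, made with Cell Ranger (6.1.1 and 7.0.0 in the submitters' processing notes) on mm10, not normalized and before any selection of cells; the counts were used as deposited. Barcodes were kept at over 1000 genes and a mitochondrial share below 10% and clustered with scanpy 1.11.5 and leidenalg 0.10.2 at a resolution of 0.8, without the 53 genes, the other axoneme genes and the regulators. A cluster was named from at least 3 markers, a median of 2000 UMIs per cell and at most 80% of cells from 1 mouse. No doublet caller was used. UMIs were summed per mouse and stage and tested, two-sided, with edgeR 4.0.16 (filterByExpr, TMM, glmQLFit, glmQLFTest; R 4.3.3), and CPM are UMIs scaled to the total of that sum. Stages were compared in the 4 control mice with all cells, genotypes over all 9 mice in 1 fit, and stage fits used mice with at least 20 cells. Calls needed a log2 change of 1 or more in size and an adjusted p below 0.01, and a differing rise the latter alone. The script was tested on simulated data.

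All Dnah and Dnaaf genes could be named. Of the Cfap genes, those named were the 12 highest over the stages, the 5 highest in SG, those on X, those highest in SG or early SC, and for each cKO the 5 with the lowest p in each direction. The members and lists were chosen with earlier results of these data known. Alternatives were DESeq2 1.42.0, RLE size factors, no scaling, no filter, an adjusted p under 0.05, finer clusters (resolution 1.2), other depth limits, other removals of cells, free RNA subtracted, a replicate block and each mouse left out. The profile of free RNA was taken per mouse from barcodes of 1 to 100 UMIs. Its share was set per mouse and stage, from spermatid and somatic genes in SG and early SC. It was set from somatic genes alone in P SC, D SC and RS, and from spermatid genes alone in somatic cells. Subtracted comparisons across these groups therefore set unlike estimates beside each other. Protein sequences were not used here. The matrices hold no columns of other samples. The SE given with edgeR is the size of the log2 change divided by the square root of the F value of its test. In genotype fits it covers the spread between mice. In stage and rise fits, with the mouse as a block, it covers the spread left after differences between mice. Levels of genes are not scaled to their length, since each UMI marks a 3′ end.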

Additional observations from a re-analysis of the deposited data

Results flagged for a closer look

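In 215 groups of 4 control values (named genes and family sums at 5 stages), the control mouse at either end was compared with the gap the rest allow, by Dixon's test at its 95% critical value. Chance alone marks about 1 in 20 such groups, and 17 were marked. Each concerns the spread within control mice.

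In D SC, control replicate 1 was the lowest mouse for 6 values: the summed Dnah genes (3221 CPM against 3885 to 3941 in the others), Dnah7a (249 against 322.5 to 325), Dnah7b (224 against 284 to 286), Dnah7c (347 against 445 to 451), Dnah8 (1095 against 1326 to 1349) and Dnah11 (0.235 against 0.678 to 0.723). These 6 values come from the same library, and the summed level includes the single genes, so they are not separate observations. D SC of this mouse had a median of 15542 UMIs per cell, against 49906 to 75549 in the other controls. Its bearing on the values was not tested.

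Control replicate 1 was the highest mouse for the sum of all 53 genes in SG (1818 CPM against 1499 to 1537), for the summed Cfap genes in early SC (1595.5 against 1334 to 1373), for Dnah3 in SG (7.24 against 1.27 to 2.27) and for Dnah9 in P SC (8.38 against 4.48 to 4.97). Control replicate 2 was the highest for Dnah7c in SG (30.6 against 19.5 to 20.7), Cfap43 in SG (87.2 against 36.5 to 41.8), Cfap299 in early SC (116 against 77.5 to 82.7) and Dnah14 in RS (85.7 against 52.3 to 56), and the lowest for Cfap206 in D SC (512 against 524.5 to 527). Control replicate 3 was the lowest for Dnaaf1 in RS (581 against 649.8 to 659) and control replicate 4 for Dnah1 in early SC (14.4 against 19.3 to 19.8).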

How the results depend on the processing

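Of 654 counts of members under alternatives, 604 stayed within 1.5 times the reported count, and of 1941 values of single genes, 1825 kept their direction and their side of the threshold, 102 lost the call, 5 gained it and 9 changed sign. The cause of these changes was not tested. For most counts in this section the share of all genes at that setting is not given. A changed count can thus go with a change in how many genes were called in all. From SG to early SC, members called higher (6) numbered 10 with finer clusters, 10 with clusters of at least 5000 median UMIs and 1 after free RNA was subtracted, when 1 was called lower (3). From early to P SC, members called lower (0) numbered 1 at an adjusted p under 0.05, 2 without scaling, 1 with DESeq2, 3 with finer clusters, 3 with free RNA subtracted, 2 with the deeper clusters, and 0 to 1 with a control mouse left out. From P to D SC, those called higher (18) numbered 11 without scaling, 11 with finer clusters and 10 with free RNA subtracted, when 1 was lower (2). From D SC to RS, those called lower (20) numbered 13 with finer clusters and 5 with free RNA subtracted. From SG to RS, those called lower (2) numbered 1 with RLE size factors, DESeq2, finer clusters or free RNA subtracted, and 1 to 2 with a control mouse left out.

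In SG and early SC together, members lower in NELF-B cKO at an unadjusted p under 0.05 (8) numbered 0 with free RNA subtracted, with or without the removal of germ cells, 13 when control replicate 2 was left out too, and 3 (without NELF-B cKO replicate 2) to 35 (without NELF-B cKO replicate 1) with a mouse left out. Those lower in TDP-43 cKO (33) numbered 2 with free RNA subtracted and 1 when no germ cell was left out as well. Members called lower (0 in each) were 15 with DESeq2 in TDP-43 cKO, 7 with DESeq2 in its SG, and 8 at an adjusted p under 0.05, 12 with DESeq2 and 0 to 13 with a mouse left out in its early SC. In NELF-B cKO, DESeq2 called 1 lower in early SC, and 0 to 1 were called lower in P SC with a mouse left out (1 without NELF-B cKO replicate 2). The rise from SG to early SC differed in TDP-43 cKO (0) for 3 members at an adjusted p under 0.05, 3 without a filter, 4 with DESeq2 and 0 to 1 with a mouse left out (1 without NELF-B cKO replicate 1).

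Among each cKO's own genes of lowest p, those reversed were, in NELF-B cKO, Cfap47 (0.12 to -0.01 with cells holding a UMI of either gene left out of every mouse, -0.02 without control replicate 1), Cfap77 (0.19 to -0.06 without NELF-B cKO replicate 1 and 0.39 without replicate 2), Cfap97d2 (0.33 to -0.20 with either gene) and Dnah2 (0.14 to -0.50 with either gene, -0.27 without NELF-B cKO replicate 1 and 0.44 without replicate 2), in TDP-43 cKO with either gene Cfap77 (0.33 to -0.03) and Dnah2 (0.25 to -0.57), none of them called, and from P to D SC Cfap70 (1.06 to -0.18 with finer clusters). Over all members, free RNA subtraction turned the sign of 7 of 52 in NELF-B cKO and 9 of 52 in TDP-43 cKO, none of them called.

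The deviations of mice with the same number correlated at r = 0.37 and 0.33 between control and NELF-B cKO, which share 2 numbers, at -0.24, -0.25 and -0.05 between control and TDP-43 cKO and at -0.50 and -0.43 between the cKOs, and no label ties the numbers to a shared litter or day, so the mice were not treated as paired. With a replicate block, 0 members were called in SG and early SC together, and 4 in NELF-B cKO (3.57% of all genes) and 28 in TDP-43 cKO (11.5%) were lower at an unadjusted p under 0.05. The number of cells limits the late stages of the cKO mice, of which some had 3 to 21 cells.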
